A study of Ovis aries with 3 samples.

Results

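The cells described here are the *TP63*-positive epithelial cells of whole sheep embryos, labelled surface ectoderm, which were selected on measured values. A cell was a member if it held at least 1 unique molecular identifier (UMI, a tag that counts an mRNA molecule once) of *TP63* (ENSOARG00020024283) and at least 1 of *EPCAM* or *KRT18*. Of 31576 kept cells from 3 libraries, 108 were members, which is 0.342% (95% exact binomial interval 0.281 to 0.413%). Members numbered 36 in E16 HS, 30 in E19 HS and 42 in E19 HSTS. The deposited matrices held 11114 to 12645 barcodes and 94754580 to 128271878 UMIs each, and library pairs shared 38 to 42 barcodes, among them 1 barcode of a member. A kept cell had 200 to 6000 detected genes, 1000 to 30000 UMIs and at most 10% of its UMIs on mitochondrial genes.

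The study asked how a mutation of *T*, the gene of the transcription factor brachyury, bears on tail length, and compared Hu sheep (HS), which carry the wild-type allele, with Hulunbuir short-tailed sheep (HSTS), whose animals were homozygous for the mutation. Whole embryos of embryonic day 16 (E16 HS) and day 19 (E19 HS and E19 HSTS) were dissociated with collagenase after insemination of ewes synchronised with progesterone sponges and given pregnant mare serum gonadotropin, and each condition was 1 droplet library of 3′ ends. The sample label of E16 HS names 1 embryo and the methods name 3, and the matrix does not part them, so E16 HS counted as 1 sample. Stage, embryo and library cannot be told apart between E16 HS and E19 HS, nor breed, *T* allele, embryo and library between E19 HSTS and E19 HS. No test over samples was possible, no p-value is given, and every interval covers counting error only, with UMIs of 1 cell not being independent.

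Surface ectoderm is the single sheet of epithelium that covers the embryo after gastrulation and later gives rise to the epidermis, its appendages and the cranial placodes. p63, the protein of *TP63*, is the transcription factor that commits this sheet to a stratified epithelium and is needed for skin and limb formation. Before it stratifies the sheet carries simple keratins such as *KRT8* and *KRT18*, AP-2 factors and DLX homeobox factors, while *KRT5* and *KRT14* mark the basal layer of the later epidermis.

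*TP63* detection was close to its lower limit. Of the members, 97 held exactly 1 *TP63* UMI and 11 held at least 2. *KRT18* was found in 107 members and *EPCAM*, the epithelial adhesion molecule, in 95, with both in 94, *EPCAM* alone in 1 and *KRT18* alone in 13. Just inside the rule, 4 members held a single *KRT18* UMI, and just outside it, 3 cells with *TP63* had neither *EPCAM* nor *KRT18*. *TP63* was present in 111 kept cells in all, so the epithelial condition removed few of them. These values chose the members and are given as a description.

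The share of members was 0.318% (0.223 to 0.44%) in E16 HS, 0.282% (0.191 to 0.403%) in E19 HS and 0.437% (0.315 to 0.59%) in E19 HSTS, with counting intervals that overlapped. Members were deeper than the average cell, with a median of 10747.5, 8200.5 and 10714 UMIs in E16 HS, E19 HS and E19 HSTS against 9046, 6900 and 8675 over all kept cells. The rule favours deep cells, since 1 UMI of a rare transcript suffices. With every cell thinned to 3000 UMIs, 11, 12 and 9 members remained, or 0.11%, 0.129% and 0.106%, and the order of the libraries was not the same. In erythroid cells, which should lack *TP63* and give its background, it was found in 0 of 2031 and 0 of 1427 erythroid cells of E16 HS and E19 HS, which allows shares of up to 0.148% and 0.21%, and in 2 of 2631 of E19 HSTS, with median depths of 14163, 17622 and 17573 UMIs. Those 2 cells are members as well.

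Cells with both *EPCAM* and *KRT18* but no *TP63* UMI, called *TP63*-free epithelial cells here, served as an epithelial comparison. They numbered 1961, 975 and 789 in E16 HS, E19 HS and E19 HSTS, and their median depths of 10697, 9067 and 10952 UMIs were near those of the members. Members made up 1.80% (1.27 to 2.49%) of the 2 classes together in E16 HS, 2.99% (2.02 to 4.23%) in E19 HS and 5.05% (3.67 to 6.77%) in E19 HSTS. With 1 library per condition, this order describes the libraries only. Because most members rest on 1 UMI, an unknown number of *TP63*-free epithelial cells may be the same kind of cell with *TP63* unsampled.

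Most members fell into 1 cluster when all kept cells were clustered, with no correction for library. The rule favours this, since it required *EPCAM* or *KRT18*. Whether *TP63*-free epithelial cells fell there as often was not tested. At a resolution of 0.25, 98 of the 108 lay in 1 cluster of 1508 cells, made up of 29, 28 and 41 members of E16 HS, E19 HS and E19 HSTS, and at a resolution of 1.0, 94 lay together. Among the non-members of that cluster, *EPCAM* was found in 88.3%, 88.8% and 87.1% of the cells of E16 HS, E19 HS and E19 HSTS and *CXCL14* in 34.1%, 23.5% and 39.8%. In the same cells *CLDN7* was found in 85.8%, 85.7% and 86.6% and *TFAP2B* in 24.7%, 20.5% and 39.2%. A second cluster of 338 cells, 329 of them from E16 HS, held 6 members, all of E16 HS. It was led by *UPK3A*, an apical plaque protein of urothelium, with *S100A5*, *WFDC2* and *S100A2*, and is left unnamed. These 6 members held no UMI of *CXCL14*, *TFAP2A*, *TFAP2B*, *DLX5* or *CDX2*, while *CLDN7* was found in 6 and *GATA3* in 4 of them. The remaining 4 members lay in 4 further clusters. Values of E16 HS that these 6 members touch most are also given without them.

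The 19 genes listed as surface ectoderm markers include the 3 of the rule. Genes were compared where the members held at least 30 UMIs of the gene in at least 10 members, a minimum that favours genes high in members, and a gene was called where its level in CPM (its summed UMIs in a class per 1000000 UMIs of that class) differed at least 2-fold in the same direction in all 3 libraries. Over all other kept cells, 102 of the 2841 genes compared were called higher, which is 3.59%, and 16 were called lower, which is 0.563%. Of the 4 surface ectoderm markers outside the rule that were compared, 3 were called higher (*DLX5*, *TFAP2A* and *KRT8*) and none lower, with a median log2 ratio of 2.88 beside 0.25 over all genes compared. *KRT19* was the exception, since it was 1.66-fold higher in E16 HS but 4.68-fold and 5.16-fold higher in E19 HS and E19 HSTS. In E16 HS 1 member held 33.7% of the *KRT19* UMIs, and without it the log2 ratio there was 0.23. Without the erythroid cells, 2 of which were members, the counts were 52 and 9. TMM scaling, which assumes that most genes are level, lowered the log2 ratios over other cells by 0.07, 0.15 and 0.48 in E16 HS, E19 HS and E19 HSTS and gave 74 higher and 18 lower.

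**Figure D1:**
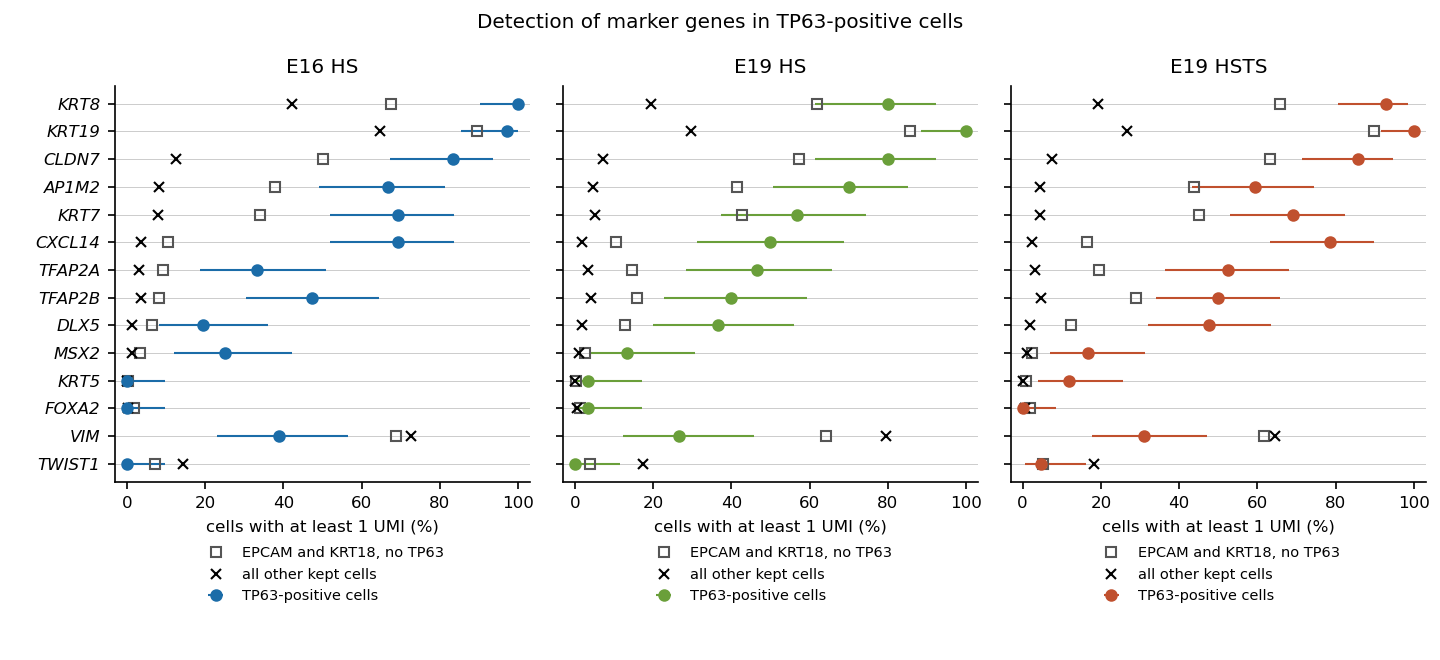
Share of cells with at least 1 UMI (x axis, %) of 14 genes in members (filled circles with 95% exact binomial intervals), *TP63*-free epithelial cells (squares) and all other kept cells (crosses), in 1 panel for each library. *KRT7*, *KRT8*, *KRT19*, *CLDN7*, *CXCL14*, AP-2 genes and *DLX5* lie to the right of the crosses in each panel, while *VIM* and *TWIST1* lie to the left. *KRT5* was found in no member of E16 HS.

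*DLX5*, a homeobox factor of the ectodermal border and the limb ectoderm, was found in 7 of 36 members of E16 HS, 11 of 30 of E19 HS and 20 of 42 of E19 HSTS. These are 19.4%, 36.7% and 47.6%, against 1.39%, 1.88% and 1.81% of other cells, 6.48%, 12.9% and 12.3% of *TP63*-free epithelial cells and 0.345%, 0.42% and 0.19% of erythroid cells. Among the non-members of the cluster that held most members, the shares were 20.2%, 26.1% and 30.8%, so in E16 HS members did not exceed them. In CPM, *DLX5* stood at 18.2, 40.3 and 75.5 in members and at 1.85, 3.45 and 2.85 in other cells, a ratio of 9.86 (4.45 to 19.1), 11.7 (6.15 to 20.3) and 26.5 (18.3 to 37.5). E19 HSTS was highest and E16 HS lowest by share and by level, and after thinning to 3000 UMIs the shares were 5.56%, 10.0% and 29.3%. Among the few members with at least 2 *TP63* UMIs the order turned, with *DLX5* in 50% of 2, 66.7% of 3 and 33.3% of 6 members. Outside the second cluster, *DLX5* was found in 23.3% of E16 HS members. Between E19 HSTS and E19 HS the level differed by a ratio of 1.87 (0.973 to 3.84), short of the 2-fold call.

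*TFAP2A*, the AP-2 factor that acts early in ectoderm and neural crest, was found in 12, 14 and 22 members of E16 HS, E19 HS and E19 HSTS, or 33.3%, 46.7% and 52.4%, and in 40.0% of E16 HS members outside the second cluster. Other cells had it in 2.98%, 3.26% and 3.15%, erythroid cells in 0.64%, 0.42% and 0.342%, and the non-members of the cluster that held most members in 28.5%, 24.5% and 31.4%. Its level was 48.5, 77.6 and 63.3 CPM against 4.87, 5.86 and 4.55 in other cells. The ratio was therefore close across the libraries, at 9.96, 13.2 and 13.9. *TFAP2B*, its paralogue, which was placed in the neural crest list, was found in 17, 12 and 21 members and stood at 105, 140 and 139 CPM against 8.77, 10.7 and 10.1. Over *TP63*-free epithelial cells the *TFAP2B* ratio was 6.73 in E16 HS, 4.00 in E19 HS and 2.38 in E19 HSTS. Of the other neural crest markers, *SOX10* and *FOXD3* had no UMI in any member, which for 0 of 108 cells allows a share of up to 2.78%. Both were rare in other cells too, so this does not set the members apart.

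*MSX2*, a homeobox target of BMP signalling, was found in 9, 4 and 7 members of E16 HS, E19 HS and E19 HSTS, too few UMIs to enter the comparison, against 1.42%, 1.12% and 0.992% of other cells. *WNT6*, a WNT ligand of surface ectoderm, was found in 5 members of E16 HS, 4 of E19 HS and 0 of E19 HSTS, where 0 of 42 allows up to 7.14%, against 0.213%, 0.16% and 0.094% of other cells. *GRHL2*, a grainyhead factor of epithelial junctions, was found in 4, 2 and 5 members, and *CDH1*, E-cadherin, in 2, 5 and 6. Without the highest cell of each library, the log2 ratios over other cells were 2.89, 3.49 and 4.48 for *GRHL2*. For *CDH1* they were 0.61, 2.83 and 2.85, and both genes rest on few UMIs. *DLX3* and *OVOL1*, regulators of epidermal differentiation, had no UMI in any member. Both were so rare in other cells that this does not set the members apart. Of the defining markers outside the rule, *DLX5* and *TFAP2A* were thus higher than in other cells and in *TP63*-free epithelial cells. In E16 HS, though, the *DLX5* share did not exceed that of the non-members of the cluster that held most members. *GRHL2* and *CDH1* were rare but lay above other cells, and *DLX3* and *OVOL1* were at 0.

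Of the 25 epithelial junction genes listed, 21 had a row in the table, 8 were compared and 6 were called higher over other cells, with a median log2 ratio of 3.00. *CLDN7*, a tight junction claudin, was found in 30, 24 and 36 members of E16 HS, E19 HS and E19 HSTS, at 255, 239 and 249 CPM, against 36.3, 21.0 and 18.0 CPM in other cells. The *CLDN7* level in members varied little between libraries. *AP1M2*, the epithelial clathrin adaptor, was found in 24, 21 and 25 members, with ratios of 6.44, 13.9 and 10.4, and *RAB25*, an epithelial recycling GTPase, in 13, 8 and 9, with ratios of 7.14, 22.2 and 13.9. *CLDN4* and *KRT7* were called as well, along with *OCLN*. Over *TP63*-free epithelial cells none of the 8 was called, with a median log2 ratio of 0.43 beside -0.05 over all genes compared.

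The list of the epidermal basal layer showed attachment genes, with the basal keratin *KRT5* in few members, while *KRT14* had no row in the table. Of its 23 genes, 7 were compared over other cells and 6 were called higher: *PERP*, *LAMA5*, *DST*, *FREM2*, *DSP* and *FERMT1*. *DSP*, desmoplakin, was found in 29, 19 and 29 members of E16 HS, E19 HS and E19 HSTS at 338, 130 and 316 CPM, against 123, 48.2 and 50.5 CPM in other cells. *FREM2*, a component of the matrix between ectoderm and mesenchyme, was found in 15, 4 and 12 members, with ratios of 9.48, 3.95 and 13.7. *KRT5* was found in 0 members of E16 HS, 1 of E19 HS and 5 of E19 HSTS, while *KRT15* and *KRT17* had no UMI in any. *KRT15* and *KRT17* were rare in other cells too, so this does not set the members apart. Among the non-members of the cluster that held most members, *KRT5* was found in 0.721%, 0.602% and 1.96%. Over *TP63*-free epithelial cells none of the 7 was called, with a median log2 ratio of 0.58.

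*CXCL14*, a chemokine of epithelia that was on no marker list, had the largest ratio of all genes called over other cells. It was found in 25 of 36 members of E16 HS, 15 of 30 of E19 HS and 33 of 42 of E19 HSTS, or 69.4%, 50% and 78.6%, against 3.52%, 1.91% and 2.3% of other cells and 1.28%, 0.561% and 0.76% of erythroid cells. Its level was 908, 862 and 1899 CPM in members, 30.1, 27.3 and 30.9 CPM in other cells and 116, 195 and 256 CPM in *TP63*-free epithelial cells. The ratio over other cells was 30.2 (27.3 to 33.3), 31.6 (27.8 to 35.8) and 61.5 (57.1 to 66.2), and over *TP63*-free epithelial cells 7.85, 4.43 and 7.40. Members were split in their *CXCL14*: per 10000 UMIs the median cell held 8.07 in E16 HS, 0.277 in E19 HS and 21.1 in E19 HSTS, with a lowest value of 0 and a highest of 27.8, 59.7 and 59.9. In E19 HS, the cells without *CXCL14* were as many as those with it, and the highest cells matched those of E19 HSTS. No cell held more than 17.6% of a library's *CXCL14* UMIs. Thinned, the shares were 69.4%, 36.7% and 73.2%. Outside the second cluster, *CXCL14* was found in 83.3% of E16 HS members, at 1127 CPM.

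**Figure D2:**
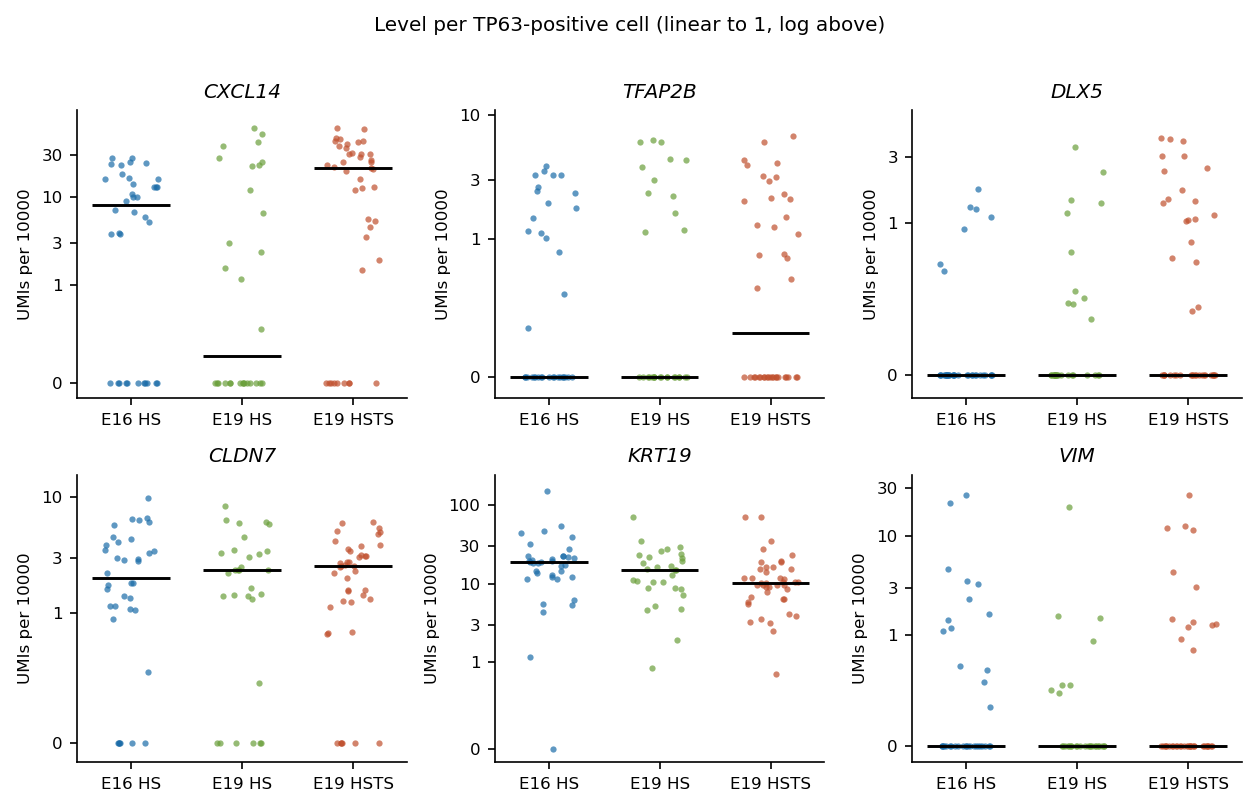
Level of 6 genes in each of the 108 members (1 point per cell) in UMIs per 10000 UMIs of the cell, on an axis that is linear to 1 and logarithmic above, by library, with the median as a bar. *CXCL14* spans 0 to 59.9 with medians of 8.07, 0.277 and 21.1 in E16 HS, E19 HS and E19 HSTS, whereas *KRT19* was at 0 in 1 cell.

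Other genes among the 15 with the largest mean log2 ratio over other cells were *KRTCAP3*, *SEMA3E*, *PDGFA*, *PLAC9*, *CDH3*, *NAALADL2*, *BEX4* and *SHTN1*, at 3.11 to 3.52. *PDGFA*, a growth factor that epithelia send to mesenchyme, was found in 28, 21 and 28 members of E16 HS, E19 HS and E19 HSTS, at 192, 133 and 186 CPM against 21.1, 13.8 and 16.7 CPM. Its ratio was 9.11, 9.68 and 11.1. *SEMA3E*, a secreted guidance cue for vessels and axons, was found in 7, 9 and 15 members, with ratios of 7.25, 9.14 and 13.9, and *CDH3*, P-cadherin of basal epithelium, in 11, 9 and 8, with ratios of 5.16, 13.8 and 8.76. Each of these 3 genes was higher in members than in other cells in each library.

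Relative to *TP63*-free epithelial cells, 15 of the 2841 genes were called higher, which is 0.528%, and 3 lower, which is 0.106%. Those higher were *CXCL14*, *SEMA3E*, *PLAC9*, *TFAP2B*, *IGFBP6*, *TFAP2A*, *DLX5*, *SEMA3D*, *PDLIM4*, *MAP2*, *PDGFA*, *SYT1*, *IGFBP5*, *BEX4* and *HOXC8*. The set holds 2 class 3 semaphorins and 2 binding proteins of insulin-like growth factors, a grouping chosen after the values were seen. *IGFBP6* was found in 16, 17 and 22 members of E16 HS, E19 HS and E19 HSTS, with ratios of 3.51, 3.77 and 3.40 over *TP63*-free epithelial cells, and *SEMA3D* in 7, 9 and 10, with ratios of 2.59, 4.00 and 2.14. The 3 lower genes were *APOA1*, an apolipoprotein of hepatic and yolk sac endoderm, *VIM* and *FABP3*. In *TP63*-free epithelial cells, genes listed for extraembryonic and hepatic endoderm summed to 1283, 6017 and 6143 CPM. In members they summed to 40.4, 99.3 and 40.8 CPM, and the part of endoderm in these calls was not tested. In E16 HS, *IGFBP5* was found in 79.1% of non-members of the cluster that held most members. E16 HS members outside the second cluster had it in 80.0%. *CXCL14* and *TFAP2B* were rarer in those non-members than in members. *HOXC8* passed with a ratio of 1.73 in E19 HS on the unsmoothed scale, where the members held 3 UMIs, and its call rests on the prior count of 0.5.

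**Figure D3:**
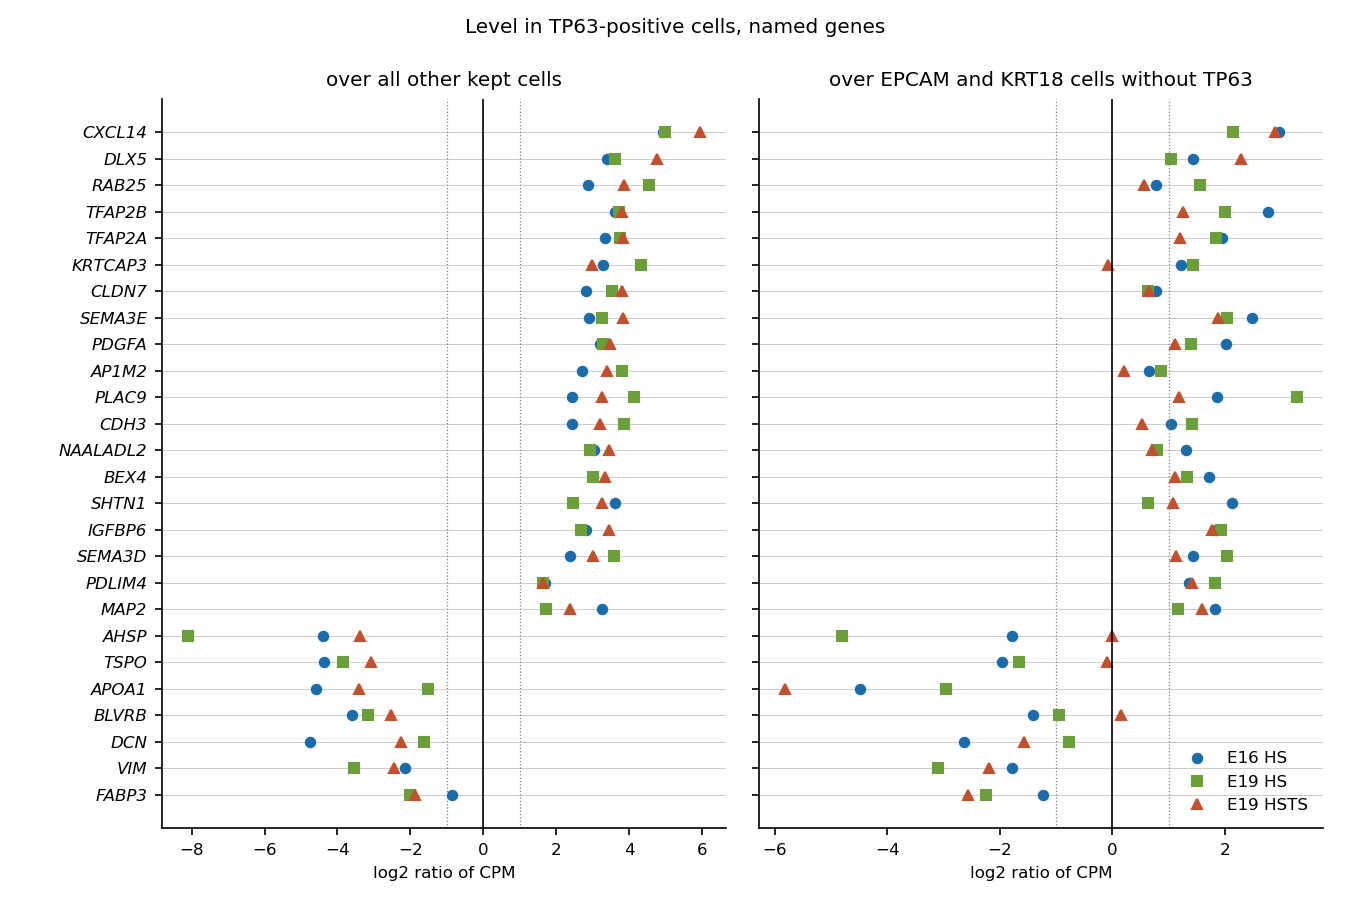
Log2 ratio of CPM (x axis) in members over all other kept cells (left) and over *TP63*-free epithelial cells (right) for named genes, with 1 symbol per library and dotted lines at 2-fold. *CXCL14* lies farthest right on the left panel, and the value of *AHSP* in E19 HS rests on 0 UMIs and the prior count of 0.5.

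Of the 16 genes lower than in other cells, 4 were on a list of another cell type: *VIM*, *AHSP*, *BLVRB* and *APOA1*. *VIM*, the intermediate filament of mesenchyme, was found in 14, 8 and 13 members of E16 HS, E19 HS and E19 HSTS, against 72.5%, 79.6% and 64.4% of other cells and 68.9%, 64.3% and 61.6% of *TP63*-free epithelial cells. Its level was 279, 152 and 204 CPM against 1238, 1783 and 1128 CPM in other cells. In each library 1 member held most of the *VIM* UMIs of its class, 51.4%, 85.7% and 58.0%. *TWIST1*, a mesenchymal factor, was found in 0, 0 and 2 members. *AHSP*, the chaperone of alpha globin, stood at 26.3, 0 and 55.1 CPM against 575, 429 and 588 CPM, and *BLVRB*, *ALAD* and *UROD* of haem metabolism were called lower too. Of the 5 erythroid markers with a row, 2 were compared and both were lower. Without the erythroid cells, 2 of which were members, the mean log2 ratio was only -0.67 for *AHSP* and -0.26 for *BLVRB*, short of 2-fold. With all cells, the summed level of the 5 markers in members was 82.9, 71.3 and 296 CPM, against 1459, 1228 and 2149 CPM in other cells.

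Most transcription factors of endoderm and most markers of endothelium and myeloid cells were rare or at 0, but other genes of the endoderm lists were not. Of 16 gut endoderm genes with a row, 10 had no UMI in any member, among them *FOXA1*, *SOX17*, *SHH*, *HNF4A* and *GATA6*, and the 2 called higher were *CLDN7* and *KRT7*, which other epithelia share. *FOXA1*, *SOX17*, *SHH* and *HNF4A* were so rare in other cells that their absence does not set the members apart. At least 1 gene of the list was found in 86.1%, 90% and 92.9% of members of E16 HS, E19 HS and E19 HSTS, and its summed level was 497, 369 and 394 CPM against 104, 49.3 and 43.7 CPM in other cells and 367, 290 and 313 CPM in *TP63*-free epithelial cells. *CDX2*, a caudal and gut factor that is also on the trophoblast list, was found in 11, 1 and 6 members, at 76.8, 3.10 and 16.3 CPM. *APOA1* stood at 16.2, 90 and 16.3 CPM against 410, 261 and 183 CPM in other cells. *FOXA2* was found in 1 member and *HHEX*, a factor of anterior endoderm, in 3. The endothelial genes *PECAM1*, *CDH5* and *TIE1* and the myeloid genes *C1QB*, *C1QC*, *PTPRC* and *TYROBP* were at 0, while 40 of the 41 *C1QA* UMIs lay in 1 cell of E16 HS. Of these endothelial and myeloid genes at 0, all but *PECAM1* were rare in other cells too, so their absence says little. Of amnion and trophoblast markers, *HAND1*, *VTCN1* and *TKDP1* were at 0, and *GATA3*, which early ectoderm also expresses, was found in 12, 2 and 5 members of E16 HS, E19 HS and E19 HSTS. *VTCN1* and *TKDP1* were so rare in other cells that their absence does not set the members apart. *ELF5* was found in 5, 2 and 0. At least 1 gene of that list was found in 69.4%, 30% and 33.3% of members, against 28.2%, 15.5% and 14.1% of other cells and 57.2%, 31.2% and 33.5% of *TP63*-free epithelial cells, and its summed level was 174, 37.2 and 49.0 CPM against 68.9, 60.3 and 38.3 CPM in other cells. Levels of other cell types in members differed between libraries, with a summed mesenchyme list of 958, 363 and 713 CPM in E16 HS, E19 HS and E19 HSTS. Their part in the comparisons between libraries was not tested.

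Signalling genes were sparse, and few passed. BMP ligands instruct ectoderm to become epidermis instead of neural tissue. Of 21 genes of the BMP pathway, 6 were compared and 2 were called higher over other cells, the ligand *BMP7* and the pseudoreceptor *BAMBI*, with a median log2 ratio of 0.73. *BAMBI*, at ratios of 2.08, 2.15 and 3.31, falls short of 2-fold under TMM scaling. *BMP7* was found in 26, 18 and 22 members of E16 HS, E19 HS and E19 HSTS, at 88.9, 96.2 and 63.3 CPM against 31.4, 13.6 and 12.8 CPM. The targets *ID1* and *ID3* were widespread in members and in other cells and were not called, with *ID1* at ratios of 1.78, 1.02 and 1.21. The antagonists *NOG*, *CHRD* and *GREM1* had no UMI in any member, but they were rare in other cells too, so this does not set the members apart. *FST*, follistatin, was found in 2, 1 and 0 members against 21.2%, 17.7% and 18.5% of other cells.

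Of the 37 WNT pathway genes, 36 had a row, 4 were compared and none was called, with a median log2 ratio of 0.55. Apart from *WNT6* and *WNT5B*, ligands were found in few members or in none. *LEF1*, the nuclear partner of beta-catenin, had ratios of 1.22, 5.53 and 6.41 in E16 HS, E19 HS and E19 HSTS, so it was above 2-fold at E19 only. Of the 18 FGF pathway genes 4 were compared and none was called (median log2 ratio 1.10). *FGFR2*, the receptor of epithelia in its IIIb form, was found in 14, 5 and 15 members with ratios of 4.71, 1.75 and 3.14. In the midkine list 4 of 11 genes were compared and none was called, although *MDK* was found in 36 of 36, 30 of 30 and 41 of 42 members, at ratios of 1.27, 1.45 and 1.73. None of 8 compared cell cycle genes was called.

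The limb ridge list addresses the apical ectodermal ridge, the thickened ectoderm at the limb tip that sends *FGF8* to the limb bud. Of its 13 genes 3 were compared and 1, *DLX5*, was called. *FGF8* was found in 2 members of E16 HS, 9 of E19 HS and 10 of E19 HSTS, or 5.56%, 30% and 23.8%, against 7.64%, 2.58% and 2.08% of other cells. Among the non-members of the cluster that held most members, *FGF8* was found in 4.32%, 10.8% and 12.0%. Its level was 6.06, 99.3 and 114 CPM, against 20.0, 6.28 and 4.69 CPM in other cells, so the ratio was 0.303 in E16 HS, 15.8 in E19 HS and 24.4 in E19 HSTS. The E16 HS level equals the floor of 3 counts. Few cells carried the signal at E19: 1 cell held 11 of 32 UMIs in E19 HS and 1 held 28 of 56 in E19 HSTS. *SP8*, *FGF4*, *FGF9*, *FGF17* and *RSPO2* had no UMI in any member. *SP8*, *FGF4* and *FGF9* were rare in other cells too, so their absence does not set the members apart. *T* itself was found in no member, which allows 8.33%, 10.0% and 7.14% in E16 HS, E19 HS and E19 HSTS, against 1.46%, 0.274% and 0.0522% of other cells.

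*FGF8* and *DLX5* shared members. Over the 3 libraries, *DLX5* was found in 13 of 21 members with *FGF8* and in 25 of 87 without it, and *TFAP2A* in 22 of 38 members with *DLX5* and in 26 of 70 without it. *CXCL14* went with *TFAP2B*, as it was found in 45 of 50 members with *TFAP2B* and in 28 of 58 without it. *SOX2*, a factor of neural and placodal progenitors, ran the other way, with *CXCL14* in 7 of 23 members with *SOX2* and in 66 of 85 without it. These counts describe cells of 3 libraries pooled, and deep cells detect more of any pair. By library, *TFAP2A* was found with and without *DLX5* in 3 of 7 against 9 of 29 members of E16 HS. In E19 HS it was 8 of 11 against 6 of 19. In E19 HSTS the shares were close, at 11 of 20 against 11 of 22.

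HOX genes, which give cells an address along the body axis, were found in fewer members of E19 HS than of the other libraries. At least 1 of 38 HOX genes was found in 31 of 36 members of E16 HS (86.1%, 70.5 to 95.3%), 12 of 30 of E19 HS (40.0%, 22.7 to 59.4%) and 34 of 42 of E19 HSTS (81.0%, 65.9 to 91.4%). These intervals cover counting error within 1 library each, and the difference between libraries was not tested. Among other kept cells the shares were 62.1%, 56.9% and 57.2%, and among *TP63*-free epithelial cells 81.2%, 57.6% and 69.7%. Summed HOX levels in members were 439, 115 and 349 CPM, against 326, 295 and 311 CPM in other cells. After thinning, the shares in members were 63.9%, 30% and 56.1%, and these intervals overlapped in part, from 46.2 to 79.2%, 14.7 to 49.4% and 39.7 to 71.5%.

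The difference was seen in each block of paralogues, a grouping chosen after the data were seen. *HOX9* to *HOX13* genes, those of the trunk and tail, were found in 25, 7 and 26 members of E16 HS, E19 HS and E19 HSTS, at 168, 37.2 and 145 CPM. *HOX6* to *HOX8* genes stood at 160, 46.5 and 145 CPM, and *HOX1* to *HOX5* genes at 111, 31.0 and 59.2 CPM. After thinning, *HOX1* to *HOX5* genes were found in 11.1%, 16.7% and 19.5% of members, so that block did not keep the order. *HOXB9* was found in 13, 3 and 17 members, *HOXC8* in 13, 2 and 13 and *HOXC9* in 13, 3 and 16. Of 5 HOX genes compared over other cells none was called, with a median log2 ratio of 0.18.

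**Figure D4:**
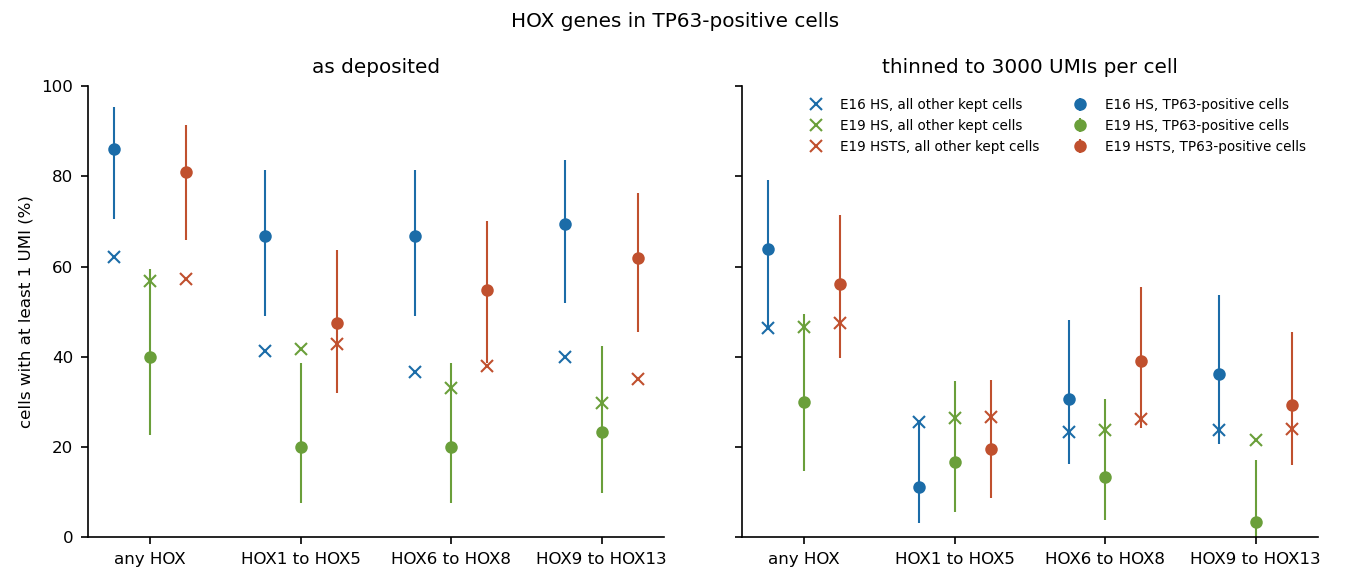
Share of cells with at least 1 UMI (y axis, %) of any HOX gene and of 3 blocks of paralogues, in members (circles with 95% exact binomial intervals) and all other kept cells (crosses), as deposited (left) and after thinning each cell to 3000 UMIs (right). Members of E19 HS lie lowest for any HOX gene, at 40.0% as deposited and 30% thinned.

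Placode genes were found in more members of E19 HS than of the other libraries. At least 1 of 18 was found in 30.6% (16.3 to 48.1%), 66.7% (47.2 to 82.7%) and 42.9% (27.7 to 59.0%) of members of E16 HS, E19 HS and E19 HSTS, with counting intervals that overlapped in part. Other kept cells had 41.6%, 41.6% and 38.9% and *TP63*-free epithelial cells 51.1%, 50.7% and 41.4%, so members of E16 HS and E19 HSTS were below or near these shares. Thinned, the shares in members were 8.33%, 40.0% and 9.76%. *SOX2* was found in 4, 10 and 9 members, at 14.1, 105 and 40.8 CPM, which in E19 HS was near the 121 CPM of other cells. *PITX1* was found in 1, 5 and 1 members and *PAX3* in 0, 5 and 2. *PITX1* marks oral ectoderm among other tissues. *FOXE1*, *FOXE3* and *NEUROG1* had no UMI in any member, but they were rare in other cells too, so this does not set the members apart. *HOXB9* was found in 2 of 23 members with *SOX2* and in 31 of 85 without it. Which region of the embryo each library sampled was not tested.

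Between stages, genes were compared where the members of the library with the higher level held at least 30 UMIs of the gene in at least 5 cells, a minimum that favours genes that differ. With 1 library a side, a call is a 2-fold difference and nothing more. Of 1424 genes compared, 145 were higher in members of E16 HS than of E19 HS, which is 10.2%, and 14 were lower, which is 0.983%. The median over all genes compared was 0.30 on the log2 scale, positive in favour of E16 HS. The split depends on scaling, since TMM scaling lowered the log2 ratios by 0.24 and gave 85 higher and 31 lower. The members of E19 HS held the fewest UMIs, 322368 against 494761 in E16 HS and 489782 in E19 HSTS, and with the same minimum in CPM on both sides 69 were higher and 14 lower. With all deposited barcodes 372 were higher.

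*CDX2*, a caudal homeobox factor, had the largest ratio, with 38 UMIs in 11 members of E16 HS against 1 UMI in 1 member of E19 HS, a ratio of 24.8 (4.18 to 1003). Other kept cells differed in the same direction, by 2.96 on the log2 scale against 4.06 in members. In E19 HSTS *CDX2* was found in 6 members at 16.3 CPM. *COL1A2* (165 against 12 UMIs), *FN1* (125 against 11) and *TRIM33* (32 against 3) were also higher in E16 HS, with log2 ratios of 3.11, 2.83 and 2.60 in members and of 2.02, 0.90 and 0.31 in other cells. *IGF2*, the fetal growth factor, had 437 against 36 UMIs, but 230 of the 437 lay in 1 cell, and without that cell its level in E16 HS was 439 CPM against 112 CPM in E19 HS. *HOXB9* differed by 2.36 on the log2 scale in members and by -0.19 in other cells.

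The largest ratios in the other direction were those of *FOS*, *FGF8*, *SOX2*, *H1-5* and *JUN*, which were higher in E19 HS members. *FOS* had 4 UMIs in E16 HS against 70 in E19 HS, a log2 ratio of -4.59, and the log2 ratio of other cells was -5.04, so this immediate-early gene of cell stress differed in the whole library. *FGF8* was 16.4-fold higher in members of E19 HS than of E16 HS, while in other cells it was higher in E16 HS, by 1.67 on the log2 scale. In the non-members of the cluster that held most members, its share was higher in E19 HS too, at 10.8% against 4.32%. *SOX2* was 7.45-fold higher in E19 HS. Of the basal layer genes, *LAMA5* and *DSP* were higher in E16 HS (2.42-fold and 2.59-fold), as was *KRT8* (2.90-fold), and in other cells these genes were also higher in E16 HS, by 1.5, 1.34 and 2.13 on the log2 scale.

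Between breeds at E19, 108 of 1375 genes were higher in members of E19 HSTS than of E19 HS, which is 7.85%, and 12 were lower, which is 0.873%, with a median of 0.21 on the log2 scale. TMM scaling lowered the log2 ratios by 0.21 and gave 59 higher and 24 lower. With the same minimum in CPM on both sides 51 were higher and 12 lower, and with all deposited barcodes 171 were higher. *CXCL14* was 2.20-fold (1.92 to 2.53) higher in E19 HSTS, while other cells differed by 0.18 on the log2 scale, and under TMM scaling *CXCL14* and *FERMT1* fall short of 2-fold. Among basal layer genes 3 of 5 compared were higher and none lower. *ITGA6*, the integrin of hemidesmosomes, stood at 79.6 against 24.8 CPM, *DSP* at 316 against 130 CPM and *FERMT1*, kindlin-1, at 79.6 against 37.2 CPM. Other cells differed in these genes by 0.03, 0.07 and -0.33 on the log2 scale. The E19 HS level of *ITGA6* rests on 8 UMIs in 8 members. *JAG2*, a Notch ligand of the basal layer that was too sparse to compare, was found in 2 members of E16 HS, 1 of E19 HS and 10 of E19 HSTS.

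The largest ratios in favour of E19 HSTS were those of *FBXO5*, *SGO1*, *COL1A2*, *SLK* and *POSTN*, with log2 ratios of 2.66, 2.29, 2.24, 2.17 and 1.96. *FBXO5* and *SGO1* act in mitosis and rested on 3 and 4 UMIs in E19 HS, and 22 of the 32 *POSTN* UMIs of E19 HSTS lay in 1 cell. In favour of E19 HS, *GAPDH* led, with 5 UMIs in E19 HSTS against 590 in E19 HS, and other cells differed by -8.34 on the log2 scale against -7.35 in members, so the near absence of this glycolytic gene was shared by the library. *GSTM3*, *TMEM88*, *PRXL2B* and *GTF2A2* followed, with log2 ratios of -2.23, -1.68, -1.62 and -1.49 in members and of -1.66, -0.67, -1.33 and -1.07 in other cells. *SOX2* was lower in E19 HSTS as well, by a log2 ratio of -1.35. *TFAP2B*, *CLDN7* and *FGF8* were not called, with ratios of 0.995 (0.673 to 1.48), 1.04 (0.778 to 1.41) and 1.15 (0.733 to 1.84).

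**Figure D5:**
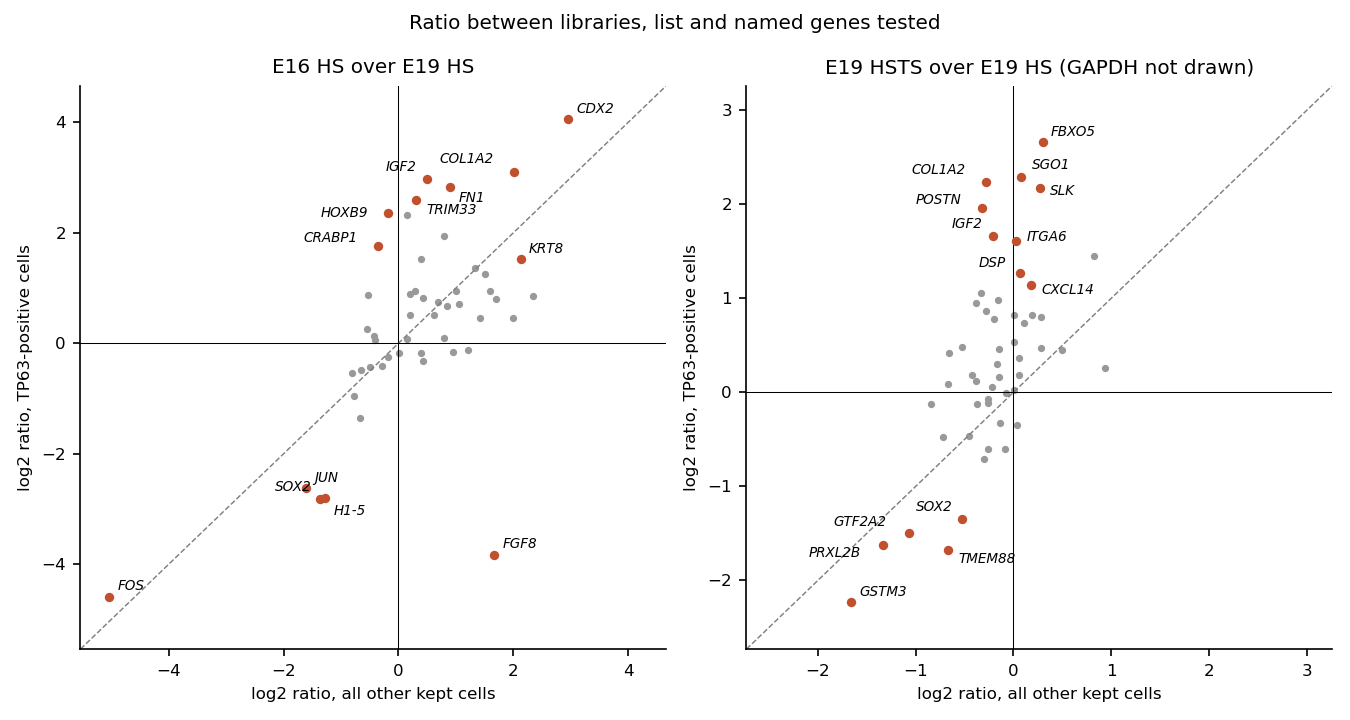
Log2 ratio between 2 libraries in members (y axis) against the same ratio in all other kept cells (x axis), for list and named genes that were compared, with the line of equality dashed. *FOS* lies near the line, *FGF8* lies at -3.83 in members and 1.67 in other cells, and *GAPDH* was left out of the right panel for its size.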

How the data were processed

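Whole embryos of sheep were sequenced as single cells in 3 libraries (E16 HS, E19 HS and E19 HSTS, 1 per condition). Per the labels and methods, cells were dissociated with collagenase, red cells were lysed, and the authors aligned the reads to a sheep genome named Ovis_aries_genome_v1.0 with Cell Ranger 6.1.2. The deposited matrices hold raw UMI counts for 26478 gene rows, of which 14626 carry a symbol of their own, and the authors analysed them with Seurat 4.1.1 in R 4.1.2.

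Cells were filtered as stated in the results. Counts were summed per class and library and scaled to CPM, and ratios were formed with a prior count of 0.5 scaled to library totals. A gene entered the comparison with other cells at 30 UMIs in at least 10 members, and a comparison between libraries at 30 UMIs in at least 5 members of the library where it was higher. *TP63*, *EPCAM* and *KRT18* were left out. Calls needed a 2-fold ratio. With 1 library per condition there is no test. Intervals are exact (Clopper-Pearson for shares, conditional binomial for ratios), a share of 0 was bounded by 3 counts, and they cover counting error only. Erythroid reference cells held at least 10 UMIs of *AHSP*, *BLVRB*, *ALAS2* and *KLF1*. For depth, cells were thinned to 3000 UMIs, which left out 1 member. Clusters came from Seurat 5.3.0 (2000 variable genes, 25 components). Scrublet in scanpy 1.11.5 called 202, 1 and 2 cells in E16 HS, E19 HS and E19 HSTS, so it did not work in the E19 libraries. No doublets were removed, and cells in the top 8% of its scores, 12 of them members, were left out as an alternative. TMM factors came from edgeR 4.0.16. Other steps used Python 3.11.15 with pandas 2.3.3, scipy 1.17.1 and numpy 2.4.6. Scripts were tested on simulated data.

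Named genes were those of 23 lists (318 symbols, 296 with a row), the 15 highest and 5 lowest called over other cells, the 10 highest and the lowest over epithelial cells without *TP63*, and the 5 largest in each direction between libraries. The coexpressed pairs, *C1QA* and the groupings of HOX paralogues, semaphorins and growth factor binding proteins were chosen with their values known. The members and lists were chosen with earlier results of these data known. The E16 HSTS data that the study took from elsewhere were not analysed here, and results for a few genes are not reported here.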

Additional observations from a re-analysis of the deposited data

Results flagged for a closer look

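In 11 genes the log2 ratio of members over the other kept cells lay above 0 in at least 1 library and below 0 in at least 1 other, with counting intervals that excluded 1-fold in both. The values stand in the order E16 HS, E19 HS and E19 HSTS, the difference between libraries was not tested, and every library is 1 sample.

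*FGF8*, the ligand of the limb ridge, had log2 ratios of -1.50, 4.00 and 4.62. *PITX1*, a homeobox gene of oral ectoderm, stood at -2.23, 2.89 and -0.44, above the other cells in E19 HS alone. *HOXB9*, a trunk HOX gene, was below the other cells in E19 HS and above them in the rest, at 1.03, -1.52 and 0.41. *CRABP1*, which binds retinoic acid in the cell, stood at 0.83, -1.28 and -0.27.

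Among matrix and growth factor genes, *COL1A2* had log2 ratios of -0.59, -1.69 and 0.83, *COL3A1* of -1.15, -0.48 and 0.50, and *PTN*, the relative of midkine, of -0.12, -0.38 and 0.95. *TOP2A*, the topoisomerase of dividing cells, stood at -0.02, -0.34 and 0.29. *JUN* stood at -1.12, -0.10 and 0.43 and *GAPDH* at -0.16, 0.31 and 1.30, where the E19 HSTS value rests on 5 UMIs. *C1QA*, a complement gene of macrophages, stood at 2.45, -3.10 and -3.13, where 40 of its 41 UMIs came from 1 member of E16 HS. TMM scaling lowers the E19 HSTS ratios by 0.48, which takes those of *HOXB9*, *JUN* and *TOP2A* below 0.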

How the results depend on the processing

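No paired analysis was possible because each condition is 1 library and the columns carry no pairing. Alternatives were computed for the member share, the *DLX5* share among members, the counts of called genes and the named genes. Requiring both *EPCAM* and *KRT18*, or 500 genes and under 5% mitochondrial UMIs, left each of these within its margin. Ratios near 1-fold can change sign under TMM scaling. Those of *HOXB9*, *JUN* and *TOP2A* over other cells, described above, do so in E19 HSTS. That of *CLDN7* between E19 HSTS and E19 HS does so too.

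Members with at least 2 *TP63* UMIs were 0.0177%, 0.0282% and 0.0624% of kept cells in E16 HS, E19 HS and E19 HSTS, with *DLX5* in 50%, 66.7% and 33.3% of 2, 3 and 6 such members, so that E19 HSTS was lowest. Over other cells 6 genes were then higher and 0 lower, and over epithelial cells without *TP63* 0 were higher. Between E16 HS and E19 HS 0 were higher and 0 lower, and between E19 HSTS and E19 HS 12 and 0, since few UMIs remained. After thinning to 3000 UMIs the shares were 0.11%, 0.129% and 0.106%, with *DLX5* in 5.56%, 10.0% and 29.3%. Over other cells 22 genes were higher and 4 lower, over epithelial cells without *TP63* 3 were higher, and the comparisons between libraries gave 24 and 2 for stage and 18 and 3 for breed. With 60 UMIs per gene, which leaves fewer genes to compare, the counts were 52 and 5 over other cells, 7 over epithelial cells without *TP63*, 45 and 8 for stage and 31 and 5 for breed.

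TMM scaling gave 85 and 31 for stage and 59 and 24 for breed. All deposited barcodes gave 372 higher in E16 HS and 171 higher in E19 HSTS. Without the 8% highest Scrublet scores 10 genes were lower than in other cells. Without 1 library, the calls over other cells ranged from 76 to 130 higher and from 8 to 13 lower, and those over epithelial cells without *TP63* from 11 to 23, the extremes being without E19 HSTS and without E19 HS, apart from the 13 without E16 HS.

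Alternatives chosen after seeing the data were 3. Without the erythroid cells 52 genes were higher and 9 lower than in other cells, and the mean log2 ratio of *AHSP* was -0.67, of *BLVRB* -0.26, of *TSPO* -2.25, of *CXCL14* 4.76 and of *PDGFA* 2.76. With the same CPM minimum in both libraries 69 genes were higher in E16 HS and 51 in E19 HSTS. Without the second cluster 99 were higher and 12 lower than in other cells. Depth limits the members: 1 UMI stands for 2.02 to 3.10 CPM over a library's members.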
